A study of Homo sapiens with 18 samples.

Results

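The 10 genes described here are those with which a human cell detects DNA outside its nucleus, or keeps that detection in check: MB21D1 (current symbol CGAS), TMEM173 (STING1), TBK1, IRF3, IFI16, AIM2, ZBP1, TREX1, DDX41 and TLR9. They were taken by symbol, as genes that could respond to transfected plasmid DNA, and make up 10 of the 55766 genes in the deposited RNA table. K562 is an established human leukaemia line of erythroid character, and the cells of all groups carried a B2M:tdTomato transgene, named for B2M, the light chain of MHC class I, and the red fluorescent protein tdTomato. The data comprise RNA-seq and MeDIP-seq, which sequences DNA captured by an antibody against 5-methylcytosine, with 3 libraries per group in each assay. Untreated cells were the first group. Cells of the TALE group had received a mixture of 3 plasmids that code for different repressors (ATRs) built on TALE DNA-binding proteins. Cells of the dCas9 group had received 3 plasmids for repressors built on catalytically dead Cas9, with a further plasmid for the guide RNA. The time from transfection to harvest, any plasmid control without repressor, and whether the line was 1 clone are not given in the labels. Nothing in the labels says that replicates came from separate cultures, so p-values measure only the spread between these libraries, which may be technical.

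The pathway starts with cGAS, which binds DNA in the cytosol and makes the messenger cGAMP. cGAMP binds the adaptor STING on the endoplasmic reticulum, STING recruits the kinase TBK1, and TBK1 phosphorylates the transcription factor IRF3, which enters the nucleus and switches on interferon genes. Other sensors feed into this route or run beside it: IFI16 and DDX41 can act through STING, AIM2 builds an inflammasome, ZBP1 links nucleic acid to cell death, and TLR9 reads unmethylated CpG DNA in endosomes. TREX1 is a DNA exonuclease that removes cytosolic DNA before it is sensed.

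The RNA libraries held 8460076 to 12050554 counts, and the MeDIP libraries held 2529729 to 4492751 counts in the listed regions. Levels are given as CPM, the counts scaled to a common library size with TMM factors, and all tests are edgeR quasi-likelihood tests over the 9 libraries of an assay with Benjamini-Hochberg adjustment over all features tested. The targeted B2M_tomato entry lay at 359 to 393 CPM in untreated cells, at 12.5 to 18.2 CPM with TALE and at 13.9 to 19.0 CPM with dCas9, lower in all 6 treated libraries than in any untreated one. Of the markers fixed for the cell line, all 11 erythroid genes were tested, and their summed level ranged from 8528 to 9101 CPM in untreated, 6766 to 10606 CPM in TALE and 6769 to 10154 CPM in dCas9 libraries. The summed level of 5 myeloid markers stayed between 14.6 and 27.5 CPM, of 5 lymphoid markers between 15.6 and 31.7 CPM and of 4 stromal markers between 5.44 and 10.9 CPM, over all groups. Of these, 1, 1 and 2 genes were tested, and nearly all of the myeloid sum was LYZ (14.6 to 26.7 CPM) and of the lymphoid sum CD3D (14.8 to 29.6 CPM). In bulk RNA, fewer cells that express a gene and less RNA per cell cannot be told apart.

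Among the 10 genes, the adaptor, the kinase and the transcription factor were present in every library, while the sensors MB21D1, AIM2, ZBP1 and TLR9 were near or at 0. Of 12 other listed DNA sensors, 10 were tested, among them DHX9 at 390 ± 33.5 CPM and PRKDC at 617 ± 20.2 CPM in untreated cells (SD, n = 3), both of which also have other roles. TMEM173, TBK1, IRF3, IFI16 and DDX41 passed the filter on low counts (about 0.973 CPM in at least 3 libraries) and were tested. The other 5 genes, MB21D1, AIM2, ZBP1, TREX1 and TLR9, were too low to be tested. Per kilobase of the main transcript, DDX41 had the highest mean level over the 9 libraries at 39.1 CPM per kb, and IRF3 followed at 29.0 CPM per kb. TBK1 at 11.7 and TMEM173 at 10.3 CPM per kb came next, close to the median of 7.82 CPM per kb over 11962 tested genes with a known length. TREX1 at 0.589 and IFI16 at 0.442 CPM per kb were far lower. AIM2, MB21D1 and ZBP1 had 0.0773, 0.0302 and 0.0282 CPM per kb, and TLR9 was at 0. Some neighbours in this order overlapped by library: levels ranged from 32.9 to 44.5 CPM per kb for DDX41 and from 23.95 to 36.6 for IRF3. They ranged from 10.6 to 14.0 CPM per kb for TBK1 and from 8.62 to 11.8 for TMEM173, and from 0.239 to 1.34 for TREX1 and 0.257 to 0.546 for IFI16. By contrast the lowest IRF3 library lay above the highest TBK1 library, and the lowest TMEM173 library above the highest TREX1 library.

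**Figure D1:**
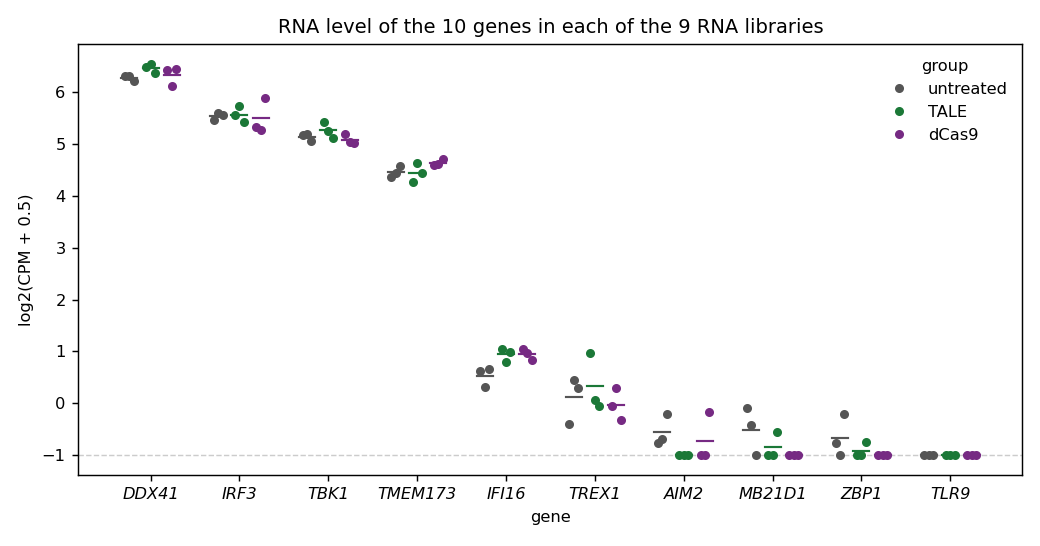
RNA level of each gene as log2(CPM + 0.5) on the y axis, with 1 point per library, 3 libraries per group, and a line at the mean of the log values; the dashed line marks 0 counts. DDX41, IRF3, TBK1 and TMEM173 form a high set, IFI16 and TREX1 sit near 1 CPM, and AIM2, MB21D1, ZBP1 and TLR9 lie on or near the dashed line.

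None of the 10 genes was called as changed in any comparison. In TALE against untreated cells, 0 of the 5 tested genes passed an adjusted p of 0.05, where 0.0218% of all 13786 tested genes did. In dCas9 against untreated cells the count was again 0, beside 0.029% of all genes, and in TALE against dCas9 it was 0, beside 0% of all genes. With the mean of both treated groups (called silenced from here on) set against untreated cells it was 0, beside 0.0363%. At an unadjusted p under 0.05 the count was also 0 of 5 in each of the 4 comparisons, where 7.15%, 5.93%, 6.38% and 6.35% of all genes passed, and DESeq2 likewise called 0 of the 5, beside 0.0653%, 0.215%, 0% and 0.261% of all genes. The comparisons of TALE and of dCas9 with untreated cells share their 3 control libraries, so their values are given side by side and not compared with each other. The median log2 fold change of the 5 tested genes in silenced against untreated cells was 0.09, beside 0.00048 over all genes tested.

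Of the sensors, MB21D1, which codes for cGAS (chr6:74123238-74162020, minus strand, GRCh37), was barely detected. Its counts were 5, 2 and 0 in untreated replicates 1 to 3, 0, 0 and 2 in the TALE replicates and 0 in all 3 dCas9 libraries. The counts thus fell mostly in untreated libraries, with 7 of the 9 counts there, but the groups of TALE and untreated libraries overlapped and untreated replicate 3 had none. When the filter on low counts was dropped, edgeR gave an unadjusted p of 0.0388 for dCas9 and 0.0401 for silenced against untreated cells, with adjusted p of 0.738 and 0.603. The fit without the filter was less strict than the filtered fit. Over all genes it called 77 in TALE against dCas9, where the filtered fit called 0. With 0 counts, the dCas9 libraries together allow a level of up to 0.0982 CPM (3 counts over the group, counting error only), against an untreated mean of 0.228 ± 0.219 CPM (SD, n = 3). DDX43 overlaps the gene on the other strand, and whether counting used strand is not given in the sources used here.

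IFI16, a PYHIN-family DNA sensor (chr1:158969758-159024945, plus strand), was the tested gene with the largest estimates against untreated cells, and the one closest to 0 between TALE and dCas9. It had 12, 6 and 9 counts in untreated replicates 1 to 3, 16 in each TALE library, and 17, 14 and 13 in the dCas9 libraries. On the CPM scale these were 1.05, 0.741 and 1.09 in untreated, 1.57, 1.23 and 1.48 in TALE, and 1.58, 1.45 and 1.29 in dCas9 libraries. All 6 treated libraries lay above all 3 untreated ones, a pattern shown by 1 of the 5 tested genes here and by 3.54% of all tested genes in either direction. Untreated replicate 2 was below the filter's cut of about 0.973 CPM, which at least 3 libraries had to reach. IFI16 was therefore tested only because treated libraries reached the cut, so the pattern is not independent of the filter. On the log2 scale the difference in level was 0.55 (SE 0.381, adjusted p 0.802) with TALE and 0.57 (SE 0.384, adjusted p 0.940) with dCas9. For silenced against untreated cells it was 0.56, with a 95% interval from -0.15 to 1.27 and an unadjusted p of 0.117. As a ratio of levels the interval runs from 0.899 to 2.41 and includes no change. Leaving out 1 library at a time moved this value between 0.42 and 0.64. The coefficient of variation over the 9 libraries was 21.9%, and counting error alone at this depth gives 27.7%. Between TALE and dCas9 the difference was -0.02 (95% interval -0.76 to 0.72). PYDC5 is annotated on the other strand within IFI16.

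DDX41, a DEAD-box helicase that also takes part in RNA splicing (chr5:176938578-176943962, minus strand), was the most abundant of the 10 genes. Its CPM values were 78.5, 79.3 and 73.8 in untreated, 89.6, 93.3 and 81.7 in TALE, and 85.1, 69.2 and 87.2 in dCas9 replicates 1 to 3. All TALE libraries were above all untreated ones, while the dCas9 libraries fell on either side. The log2 fold change was 0.19 (95% interval -0.05 to 0.44, adjusted p 0.770) with TALE and 0.06 (-0.19 to 0.31, adjusted p 0.994) with dCas9. In TALE against untreated cells the groups did not overlap for DDX41 and IFI16, 2 of the 5 tested genes, and for 12.5% of all tested genes. In dCas9 against untreated cells they did not overlap for TMEM173 and IFI16, again 2 of 5, and for 11.6% of all. Between TALE and dCas9 all 5 overlapped, where 9.38% of all tested genes did not.

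AIM2, the inflammasome sensor (chr1:159031389-159157633, minus strand), had 1, 1 and 3 counts in the untreated replicates, 0 in all TALE libraries, and 0, 0 and 4 in the dCas9 replicates. The single library with 4 counts, dCas9 replicate 3, was thus higher than any untreated library. RAD1P2 overlaps AIM2 on the same strand, and CADM3 and RNA5SP60 overlap it on the other. ZBP1 (chr20:56178902-56195632, minus strand), a sensor of Z-form nucleic acid, had 1, 0 and 3 counts in untreated, 0, 0 and 1 in TALE and 0 in all dCas9 libraries. Without the filter, the lowest unadjusted p of the pair over all comparisons was 0.0501, for AIM2 in TALE against untreated cells (adjusted p 0.698). TLR9 (chr3:52255096-52259661, minus strand) had 0 counts in all 9 libraries, which allows a level of up to 0.0325 CPM over them as far as counting error goes. ENSG00000173366 overlaps TLR9 on the same strand, and how reads shared by overlapping genes were counted is not given in the sources used here, so the limit holds only for reads assigned to TLR9. Untreated replicate 3 stood apart for such rare transcripts: 0.639% of its counts fell in genes too low to be tested, against 0.201% to 0.288% in the other 8 libraries. It also showed a count for 19326 untested genes, against 7934 to 11178. The part of this library in the values of AIM2 and ZBP1 was not tested. From it came 3 of the 5 untreated AIM2 counts, 3 of the 4 untreated ZBP1 counts and 0 of the 7 for MB21D1. Untreated replicate 1, the library with a count for 11178 untested genes, gave 5 of those 7 MB21D1 counts. Its part in them was not tested either.

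Downstream of the sensors, TMEM173, which codes for the adaptor STING (chr5:138855118-138862520, minus strand), was expressed in every library. It had 20.1, 21.3 and 23.2 CPM in untreated, 18.7, 24.2 and 21.1 CPM in TALE and 23.6, 24.1 and 25.7 CPM in dCas9 replicates 1 to 3. The dCas9 libraries lay above the untreated ones by a narrow gap, and the TALE libraries spanned the untreated range. Against untreated cells the log2 fold change was 0.19 with dCas9 (95% interval -0.09 to 0.47, adjusted p 0.948) and -0.01 with TALE (-0.29 to 0.28, adjusted p 0.999). Between TALE and dCas9 it was -0.19 (-0.47 to 0.08, adjusted p 0.842).

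TBK1, the kinase that STING activates (chr12:64845870-64895894, plus strand), showed 35.6, 36.2 and 32.9 CPM in untreated, 42.3, 37.5 and 34.3 CPM in TALE and 35.9, 32.3 and 32.1 CPM in dCas9 libraries. TALE replicate 1 was the highest library, and the groups overlapped in every comparison. Its log2 fold change was 0.12 with TALE (95% interval -0.13 to 0.37) and -0.06 with dCas9 (-0.31 to 0.19), with adjusted p of 0.861 and 0.994. For silenced against untreated cells it was 0.03 (-0.19 to 0.25). ENSG00000288665 overlaps TBK1 on the same strand and ENSG00000277895 on the other, so the split of counts between the genes is uncertain.

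IRF3, the transcription factor at the end of the route (chr19:50162826-50169132, minus strand), had 43.9, 47.7 and 46.5 CPM in untreated, 46.5, 52.5 and 42.4 CPM in TALE and 39.8, 38.2 and 58.4 CPM in dCas9 libraries. The dCas9 group held both the lowest and the highest values, with a mean of 45.4 ± 11.2 CPM (SD, n = 3) against 46.0 ± 1.94 CPM in untreated cells. IRF3 differed from untreated cells by a log2 fold change of 0.04 with TALE (95% interval -0.27 to 0.35) and -0.02 with dCas9 (-0.33 to 0.29), with adjusted p of 0.980 and 0.998. BCL2L12 overlaps IRF3 on the other strand, so its reads may be shared with IRF3 if strand was not used.

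TREX1, the exonuclease (chr3:48507210-48509044, plus strand), had 3, 7 and 6 counts in untreated, 15, 7 and 5 in TALE and 5, 7 and 3 in dCas9 replicates 1 to 3. TALE replicate 1 was the highest library at 1.47 CPM, and the others ranged from 0.262 to 0.865 CPM. Without the filter, the silenced against untreated log2 fold change was 0.11 (95% interval -1.05 to 1.27). ATRIP overlaps TREX1 on the same strand, so the split of counts between the genes is uncertain.

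**Figure D2:**
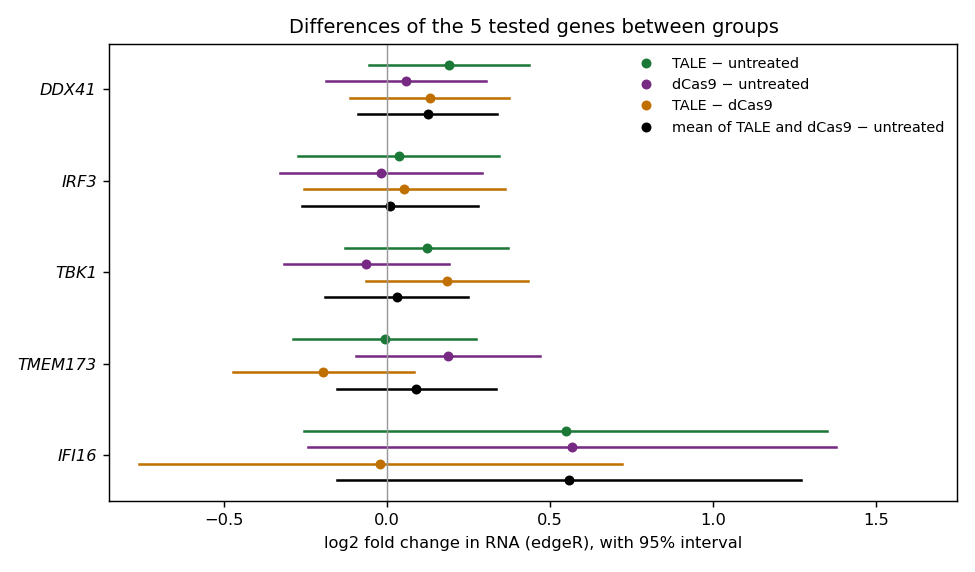
Log2 fold change in RNA (x axis) of the 5 tested genes for each comparison, as points with 95% intervals from the edgeR fit over 9 libraries. Every interval includes 0; those of IFI16 are the widest, from -0.15 to 1.27 for silenced against untreated cells.

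The wider pathway showed the same absence of calls at the adjusted threshold. Of 105 genes in 9 lists around the 10 genes, 77 were tested. With edgeR after the filter on low counts, 0 passed in any comparison. At an unadjusted p under 0.05, 4 were higher and 1 lower with TALE, 0 higher and 3 lower with dCas9, 7 higher and 0 lower in TALE against dCas9, and 2 higher and 2 lower in silenced against untreated cells. Over all tested genes 7.15%, 5.93%, 6.38% and 6.35% passed in the same comparisons. The median log2 fold change over the 77 genes was 0.05 with TALE and 0.0029 with dCas9, beside 0.0024 and -0.0031 over all genes. DESeq2 called 1 of the 77 in dCas9 against untreated cells, IFIH1, beside 0.215% of the 13518 genes with an adjusted p there.

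IFIH1 codes for MDA5, a sensor of double-stranded RNA and itself an interferon-induced gene, and was listed among 15 early target genes of IRF3 and NF-kB. It had 121, 84 and 123 counts in untreated, 97, 100 and 97 in TALE and 65, 47 and 76 in dCas9 libraries. The mean level was 11.9 ± 2.55 CPM in untreated, 8.73 ± 0.925 CPM in TALE and 6.14 ± 1.34 CPM in dCas9 libraries (SD, n = 3 each). In dCas9 against untreated cells the log2 fold change was -0.95 (SE 0.205), with an adjusted p of 0.200 by edgeR and 0.0348 by DESeq2. In silenced against untreated cells it was -0.70 (SE 0.171, unadjusted p 0.000702, adjusted p 0.220), and in TALE against dCas9 it was 0.50 (unadjusted p 0.0265, adjusted p 0.745). Without the filter on low counts, edgeR gave IFIH1 an adjusted p of 0.00366 for dCas9 and 0.0332 for silenced against untreated cells. That fit called 89 and 79 genes over all there, where the filtered fit called 4 and 5.

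The listed early target genes of IRF3 and NF-kB ranged from 0 counts to levels that were tested. ISG15, a ubiquitin-like modifier, was at 20.1 ± 1.62 CPM in untreated, 19.4 ± 5.17 in TALE and 17.7 ± 2.88 in dCas9 libraries (SD, n = 3 each). Several cytokine genes were at or near 0: IFNB1, which codes for interferon beta, had 1 count in the 9 libraries together, in untreated replicate 3, and IFNL1 had 0. The chemokine gene CXCL10 had at most 2 counts in a library and TNF at most 2. Only 4 of the 15 target genes were tested, namely ISG15, IFIT3, IFIH1 and IL6, and IFIH1 was the sole member of the list at an unadjusted p under 0.05. IFIT1, an interferon-induced RNA-binding protein named here after its values were seen, had 8, 5 and 6 counts in untreated libraries, 0, 1 and 1 in TALE and 0, 0 and 1 in dCas9. It was too low for the filter, and without it the silenced against untreated comparison by edgeR had an unadjusted p of 0.000394, adjusted to 0.127. The other untested target genes went either way, all at low counts. CCL5 and RSAD2 had higher mean CPM in both treated groups than in untreated cells, and IFIT2 was higher with TALE and lower with dCas9. IFNB1, IFNL2, IFNL3, CXCL10, OASL and TNF were lower in both treated groups.

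In the other lists the genes with the lowest unadjusted p for silenced against untreated cells all had adjusted p of 0.659 or more. Among kinases and transcription factors it was NFKB1, a subunit of NF-kB, at a log2 fold change of 0.30 (SE 0.127, p 0.0301). Among nucleases and editing enzymes it was SAMHD1, which degrades dNTPs, at 0.31 (SE 0.123, p 0.0217, adjusted p 0.659). Among the inflammasome partners of AIM2, of which 3 of 8 were tested, it was PYCARD, the ASC adaptor, at -0.49 (SE 0.213, p 0.0350). The lowest p was above 0.05 in the remaining 5 lists, among them HNRNPA2B1 among 12 other DNA sensors at 0.26, TRIM32 among 17 regulators of cGAMP and STING at 0.23, RIPK1 among 5 partners of ZBP1 at 0.17 and IRAK1 among 10 genes of TLR9 trafficking and signalling at 0.14.

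**Figure D3:**
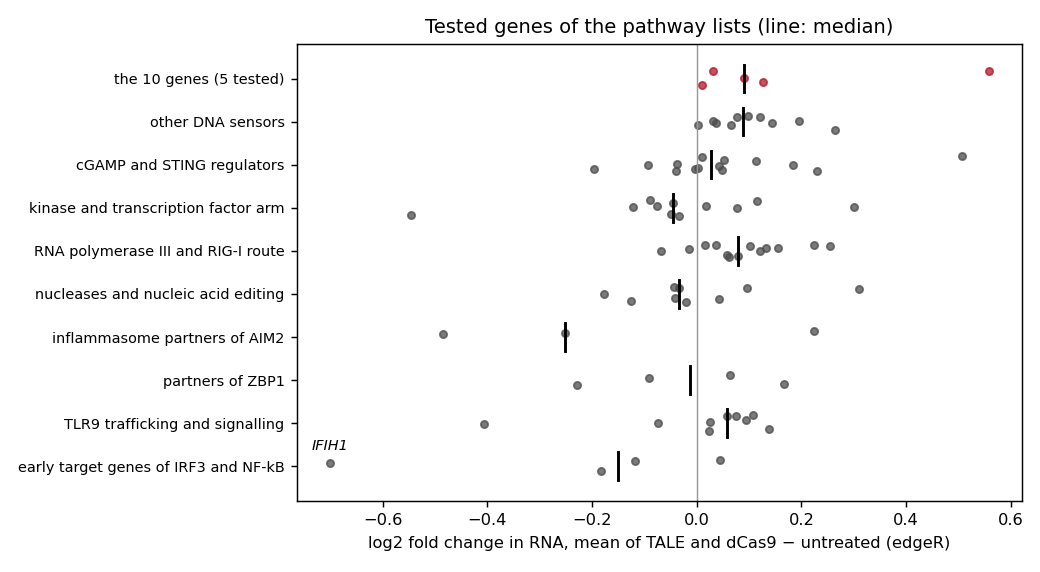
Log2 fold change in RNA for silenced against untreated cells (x axis) of every tested gene in each list (rows), with 1 point per gene, vertical jitter for visibility and a line at the list's median. Most lists have points on either side of 0, and IFIH1 at -0.70 is the lowest of the points shown.

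The deposited MeDIP-seq table listed regions at 9 of the 10 genes, but those of IFI16, AIM2 and TLR9 were all too low to be tested. Regions were assigned to a gene where they overlapped its body or came within 2000 bases of its start, which gave 35 regions, of which 27 were tested. MB21D1 had 12, TBK1 11, TMEM173 3, DDX41 3, TLR9 2, and IRF3, IFI16, AIM2 and TREX1 had 1 each, while ZBP1 had none. A DDX41 region of 7 bases and a TLR9 region of 30 bases held no CpG site. Within 2000 bases of the start, 5 of the 10 genes had a region, beside 42.6% of 19138 protein-coding genes. Within 500 bases, MB21D1 and TLR9 had a region, beside 6.25% of protein-coding genes, 4.33% of those tested in RNA and 8.78% of those too low to be tested. MB21D1 and TLR9 both belong to the latter set, and both regions consist mostly of sequence that occurs more than once in GRCh37, as given below.

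None of the regions was called. In TALE against untreated cells 0 of 27 passed, beside 0% of 105652 tested regions. In dCas9 against untreated cells and in TALE against dCas9 it was 0 of 27, beside 0.000947% each, and in silenced against untreated cells 0 of 27, beside 0%. DESeq2 also called 0 of them, beside 0% of all regions in each comparison. At an unadjusted p under 0.05 there was 1 region with TALE, 2 with dCas9, 1 in TALE against dCas9 and 2 in silenced against untreated cells, where 4.74%, 4.69%, 4.47% and 4.88% of all regions passed. The CPM of the groups did not overlap at 2, 3, 2 and 0 of the 27 regions in these comparisons, beside 10.2%, 10.3%, 9.97% and 2.45% of all tested regions.

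The MB21D1 region nearest the start lies 308 bases upstream of the transcript start and outside the gene's own transcript, and holds 60 CpG sites in 1488 bases. Its counts were 95, 83 and 106 in untreated, 73, 78 and 142 in TALE and 114, 125 and 71 in dCas9 replicates 1 to 3. The CPM values were 29.2, 35.2 and 33.0 in untreated, 33.7, 30.6 and 39.0 in TALE, and 45.0, 32.5 and 30.7 in dCas9 libraries. The groups overlapped in every comparison, and dCas9 replicate 1 was the highest library. The log2 fold change in silenced against untreated cells was 0.13 (95% interval -0.17 to 0.42, unadjusted p 0.396), 0.10 with TALE and 0.15 with dCas9. In the authors' deposited peak lists, which were called per library, all 9 libraries had a peak here, with the authors' fold enrichment between 2.01 and 3.43. Untreated, TALE and dCas9 libraries thus all carried methylation signal upstream of MB21D1, whose RNA was at 0 to 5 counts. Of the 25-base windows of this region, 71.7% occur more than once in GRCh37, so reads from elsewhere may contribute to its counts, depending on how repeats were aligned, which is not given in the sources used here.

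The TMEM173 region nearest the start lies 1085 bases upstream of the start and holds 17 CpG sites. Its counts were 47, 44 and 56 in untreated, 39, 35 and 51 in TALE and 45, 60 and 23 in dCas9 libraries. In CPM the group means were 16.9 ± 2.18, 15.3 ± 2.40 and 14.4 ± 4.05 (SD, n = 3). The groups overlapped, and dCas9 replicate 3 was the lowest library at 9.93 CPM. Silenced against untreated cells gave a log2 fold change of -0.17 (95% interval -0.59 to 0.24, unadjusted p 0.408). The authors' deposited lists have a peak here in 9 of 9 libraries. STING RNA was at 18.7 to 25.7 CPM in the 9 RNA libraries, so peaks upstream of the start were listed at an expressed gene here and at a barely detected one at MB21D1. Repeated windows made up 93.0% of this region.

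The region of TREX1 had the lowest unadjusted p among the regions of these genes. All 290 bases are annotated as coding sequence of TREX1, 964 bases downstream of the start, with 6 CpG sites, and none of its 25-base windows occurs elsewhere in GRCh37. The counts were 14, 1 and 10 in untreated, 13, 18 and 13 in TALE and 15, 27 and 15 in dCas9 replicates 1 to 3. In CPM these were 4.30, 0.424 and 3.11 in untreated, 6.00, 7.07 and 3.57 in TALE and 5.93, 7.01 and 6.48 in dCas9 libraries. The dCas9 libraries were all above the untreated ones, whereas TALE replicate 3 fell within their range. The log2 fold change was 0.96 with TALE (95% interval 0.03 to 1.89, unadjusted p 0.0431) and 1.22 with dCas9 (0.32 to 2.12, unadjusted p 0.00837). In silenced against untreated cells it was 1.09 (SE 0.408, unadjusted p 0.00906), and the adjusted p was 1.00 in each comparison. Untreated replicate 2, with a single count, weighs on the value: without it the silenced against untreated log2 fold change was 0.67, and without untreated replicate 1 it was 1.61. The authors' deposited lists have a peak here in 5 libraries, TALE replicates 1 and 2 and all 3 dCas9 replicates, with fold enrichment from 1.41 to 3.37. Those peaks had a −log10 q of 0.504 and 2.20 in TALE replicates 1 and 2. In dCas9 replicates 1 to 3 it was 0.901, 0.931 and 3.17, so none reached 5. The peaks and the counts come from the same libraries, so the peaks are no separate support for the difference. TREX1 RNA did not separate the groups, as described above.

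**Figure D4:**
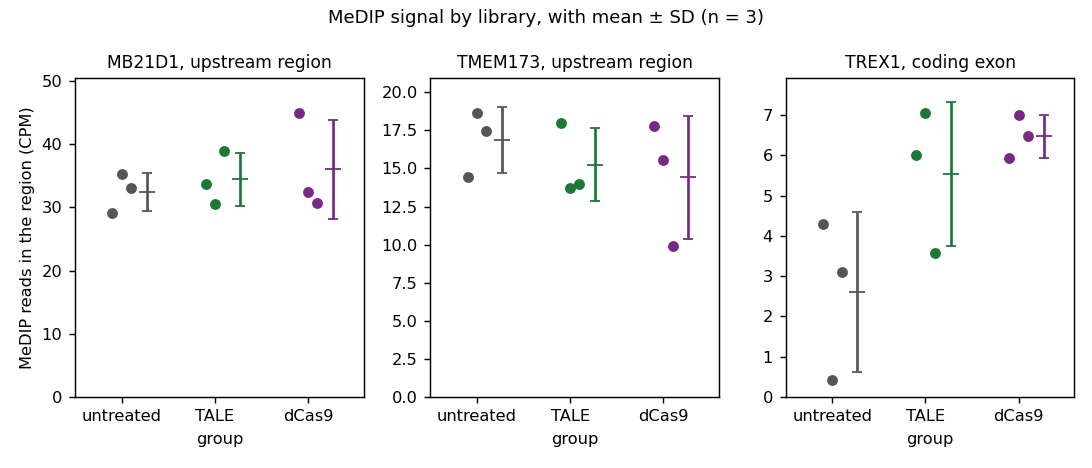
MeDIP signal in CPM (y axis, from 0) in each library for the upstream regions of MB21D1 and TMEM173 and the coding exon of TREX1, with the mean and SD of 3 libraries beside the points. The groups overlap at MB21D1 and TMEM173, and at TREX1 the 3 dCas9 points lie between 5.93 and 7.01 CPM, above the untreated points at 0.424 to 4.30 CPM.

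The remaining regions gave weaker or isolated differences. In an intron of MB21D1 (chr6:74141989-74143264, 1276 bases) the CPM was 4.61, 1.70 and 6.54 in untreated, 5.54, 5.89 and 8.24 in TALE and 9.48, 6.75 and 7.34 in dCas9 libraries. Its log2 fold change in silenced against untreated cells was 0.70 (95% interval 0.02 to 1.37, unadjusted p 0.0433), and it was 0.37 without untreated replicate 2 and 1.11 without untreated replicate 3. At DDX41, a region over exons and introns (chr5:176939363-176939824) had 7.68, 6.79 and 6.23 CPM in untreated, 9.70, 12.6 and 8.79 CPM in TALE and 4.35, 8.05 and 4.75 CPM in dCas9 libraries. All TALE libraries were above those of the other groups there, with a log2 fold change of 0.79 against dCas9 (unadjusted p 0.0214, adjusted p 1.00). In TMEM173, an intronic region (chr5:138856273-138856465) had a silenced against untreated value of 0.68 (95% interval -0.03 to 1.38). The single tested region of IRF3 was at 0.30 (-0.33 to 0.93), in an intron, and the TBK1 region with the lowest p at 0.45 (-0.37 to 1.27). The TLR9 region 178 bases downstream of the start had between 0 and 11 counts per library and was too low to be tested. Repeated 25-base windows made up 58.15% of it, and the authors' lists have a peak over it in 1 library.

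The promoters themselves differed in CpG content. The 250 bases before the start were read for 6 of the 10 genes from a RefSeq table (GRCh38.p14), and CpG sites, the letters CG on either strand, were counted. DDX41 had 28 and TBK1 27, numbers reached by 15.9% and 17.7% of 35116 promoters of that length, whose median was 11. TREX1 had 3, AIM2 2, TLR9 0, and the 2 entries of IFI16 had 0 and 3. MB21D1, TMEM173, IRF3 and ZBP1 had no entry there, and any relation of CpG content to RNA level was not tested. TBK1 and AIM2 are printed as an expressed CpG-dense and a nearly silent CpG-poor example, with CpG sites in capitals.
TBK1 promoter, chr12:64451870-64452119, plus strand, GRCh38.p14: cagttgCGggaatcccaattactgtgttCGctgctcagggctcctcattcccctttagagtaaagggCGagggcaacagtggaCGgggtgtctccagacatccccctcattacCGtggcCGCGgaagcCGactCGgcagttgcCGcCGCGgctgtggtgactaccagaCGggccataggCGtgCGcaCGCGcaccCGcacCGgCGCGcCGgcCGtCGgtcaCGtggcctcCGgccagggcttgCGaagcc
AIM2 promoter, chr1:159076767-159077016, minus strand, GRCh38.p14: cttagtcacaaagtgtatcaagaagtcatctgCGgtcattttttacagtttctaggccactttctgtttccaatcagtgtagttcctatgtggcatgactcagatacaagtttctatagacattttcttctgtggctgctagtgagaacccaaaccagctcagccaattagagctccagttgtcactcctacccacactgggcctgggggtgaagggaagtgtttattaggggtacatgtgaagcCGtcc

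No peak of any library came within 2000 bases of the start of TBK1, IFI16, AIM2 or ZBP1. Peaks did so for MB21D1 and TMEM173 in 9 libraries, for TREX1 in 5, for IRF3 and TLR9 in 4 each and for DDX41 in 3. At IRF3 they covered at most 1.52% of the window, that is its edge alone. With peaks at a −log10 q of 5 or more only, these counts were 0 for MB21D1, 5 for TMEM173, 0 for TREX1, 0 for IRF3, 1 for TLR9 and 1 for DDX41. The absence of a peak says only that the authors' lists hold none there.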

How the data were processed

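RNA-seq and MeDIP-seq libraries of K562 cells in 3 groups of 3 were analysed. The authors deposited raw counts per gene and per MeDIP region, 1 column per library, and a broad peak list per MeDIP library in which every peak has a fold enrichment (a ratio over background), a score and −log10 values of its p and q; the deposited score was not used. Per the submitters' processing notes the build was hg19 (GRCh37), with STAR 2.3.0 named for RNA and BWA 0.7.5, Picard, MACS2 and bedtools for MeDIP, without roles. The counter, the annotation, the use of strand, the handling of repeats and the rule that set the regions are not given in the sources used here. Reads that map to several places or to overlapping genes could therefore be counted in more than 1 way.

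Differences in counts were assessed by edgeR 4.0.16 run under R 4.3.3 (TMM factors, filterByExpr with a minimum count of 10, glmQLFit and glmQLFTest on 3 group means over 9 libraries, Benjamini-Hochberg adjustment, threshold 0.05). The filter left 13786 of 55766 genes and 105652 of 198884 regions. All 3 groups share 1 estimate of spread per feature, although the RNA libraries varied unevenly. Untreated replicates 2 and 3 differed by a chi-square per degree of freedom of 2.29. The other pairs within a group lay between 12.07 and 50.35. Fitted log2 fold changes use a prior count of 0.125, and SE and 95% intervals were derived from the quasi-likelihood statistic. Levels per kb use the length of the main transcript in GENCODE annotation lifted to GRCh37. Alternatives were DESeq2 1.42.0, DESeq2 size factors, other filters, only the groups compared, the replicate number as a block, leaving out each library, a narrower window and other peak thresholds. The test was checked before use on simulated counts. The changes planted there were larger than any estimate of the tested genes and regions here, so the check does not bear on small differences. These intervals include the spread between libraries, whereas limits at 0 counts cover counting error only.

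A list gene and the sequences of some regions are not reported here. The 10 genes and the lists were chosen with earlier results of these data known. All 10 were named in every comparison, with list genes past the threshold, the gene of lowest unadjusted p per list for silenced against untreated cells, and for MeDIP the region nearest each start and the region of lowest unadjusted p per gene.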

Additional observations from a re-analysis of the deposited data

How the results depend on the processing

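No call on the 10 genes or their regions depended on the processing: the counts of 0 stayed 0 under every alternative run. Pathway list genes called went from 0 to 1 in dCas9 against untreated cells with DESeq2 and with no filter on low counts, and from 0 to 1 in silenced against untreated cells with no filter; the gene was IFIH1 each time, with adjusted p of 0.0348, 0.00366 and 0.0332. Over all genes, edgeR called 3, 4, 0 and 5 in TALE against untreated, dCas9 against untreated, TALE against dCas9 and silenced against untreated; DESeq2 called 9, 29, 0 and 36, and edgeR with no filter called 74, 89, 77 and 79. The cause was not tested, and p-values from the fit with no filter are not on a par with those of the filtered fit.

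Small estimates near 0 changed sign. With no filter, TMEM173 in TALE against untreated cells was at 0.028 and IFI16 in TALE against dCas9 at 0.00017. Leaving out 1 library at a time, the log2 fold change ranged from -0.11 to 0.081 for TMEM173 in TALE against untreated cells, from -0.0013 to 0.16 for DDX41 in dCas9 against untreated cells, from -0.096 to 0.083 for IFI16 in TALE against dCas9 and from -0.010 to 0.065 for TBK1 in silenced against untreated cells. For IRF3 it ranged from -0.047 to 0.11 in TALE against untreated, from -0.24 to 0.092 in dCas9 against untreated, from -0.054 to 0.27 in TALE against dCas9 and from -0.10 to 0.065 in silenced against untreated cells. For MeDIP it ranged from -0.49 to 0.014 at the TREX1 region in TALE against dCas9, and in silenced against untreated cells from -0.43 to 0.29 at the DDX41 region nearest the start and from -0.013 to 0.27 at the other.

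No clear pairing of the RNA samples by replicate number was seen, though with 3 libraries a group this check cannot exclude one. Each gene's group mean was subtracted from its log2 level, and the deviations were correlated between libraries of different groups. In RNA these deviations correlated at -0.284 to 0.103 between same-numbered libraries. Of 9 such comparisons 4 were best with their own number, as were 2 of 9 for MeDIP. With the replicate number as a block, 0 of the 5 tested genes were called in any comparison, and the calls over all genes were 3, 2, 0 and 4. IFI16 in TALE against untreated cells was at 0.57 with the block. A filter of 10 counts in every library gave no value for IFI16 or for regions under that count. Depth limits MB21D1, AIM2, ZBP1 and TLR9, at 0 to 5 counts a library, TREX1, at 3 to 15, and IFI16, whose spread is below counting error.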

Other observations

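For each tested gene, the other tested gene most like it in log2(CPM + 0.5) over the 9 RNA libraries was looked up among 13785 genes, as a description. TMEM173 was most like TAZ (Pearson's r 0.944), TBK1 most like MAFG-AS1 (0.968), IRF3 most like SGTA (0.964), IFI16 most like AC007131.1 (0.946) and DDX41 most like CDCA5 (0.935). With 9 libraries, 5 to 39 genes reached 0.9 or more for each of them, and library size and normalization are shared by all points. Among the 5 genes themselves, r over the same libraries lay between -0.69 for TMEM173 with TBK1 and 0.61 for TBK1 with DDX41.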
